A study of Mus musculus with 9 samples.

Results

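The integrated stress response genes described here are the 10 count table rows named Atf4, Ddit3, Atf3, Trib3, Chac1, Asns, Ppp1r15a, Sesn2, Ddit4 and Atf5, chosen by name out of 47593 rows. All 10 passed the filter on low counts, as did 18356 rows in all. They were measured by RNA sequencing in 9 samples labelled as tumours, whole medulloblastomas of the cerebellum of mice on the C57BL/6J strain. All 9 mice carried the Atoh1-cre (Math1-Cre) transgene, which acts in granule neuron progenitors, and the SmoM2 allele at Rosa26, an activated Smoothened fused to EYFP that keeps the Hedgehog pathway switched on. By genotype label 3 tumours were Cdk6+/+ and 6 were Cdk6-/-. The labels state no age and no treatment, and list every tumour as its own sample. The design set these genotype labels against each other, Cdk6 being a cyclin D dependent kinase.

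The integrated stress response is the programme by which a cell answers unfolded protein, lack of amino acids, lack of haem or viral RNA. Kinases that sense these conditions phosphorylate the initiation factor eIF2, most translation falls, and the mRNA of Atf4 is translated more because of short open reading frames ahead of its coding region. The Atf4 protein then switches on genes for amino acid supply, for other transcription factors and for the phosphatase subunit that ends the response. Control of Atf4 is therefore largely translational, and its mRNA level is not a measure of the protein.

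Atf4 and its relative Ddit3 bind composite C/EBP-ATF elements whose core reads TGATGNAA, where N is any base, and many cyclic AMP response elements read TGACGTCA. Both motifs were searched on both strands of the RefSeq promoters (GRCm38.p6, 250 bases before to 50 after each start), and no promoter of the 10 genes held both. Of the 10 genes, which had 11 promoters, 4 held TGATGNAA and 1 held TGACGTCA, against 4.51% and 2.03% of all 27025 genes with a promoter. Chac1, Trib3 and Asns, which held TGATGNAA, were highest or next to highest in Cdk6-/- tumour 6. So were Sesn2, Atf4, Ddit4 and Atf5, which held neither motif, while Atf3, which held TGATGNAA, was not. Tumour 6 was singled out after its values were seen. It was the highest library for 8.26% of all genes, and the share highest or next to highest there was not determined. Ppp1r15a, which held TGACGTCA, was the gene whose groups did not overlap. Capitals mark the matched bases, read 5′ to 3′ on the strand of the gene. TTGCATCA and TTACATCA are the core on the opposite strand.
Chac1: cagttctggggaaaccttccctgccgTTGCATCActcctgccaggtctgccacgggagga
Atf3: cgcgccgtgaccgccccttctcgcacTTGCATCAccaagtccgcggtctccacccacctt
Asns: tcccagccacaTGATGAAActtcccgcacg
Trib3: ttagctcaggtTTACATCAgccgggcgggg
Ppp1r15a: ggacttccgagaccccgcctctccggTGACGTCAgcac
The printed windows lie at chr2:119351023-119351082 on the plus strand for Chac1 and, on the minus strand, at chr1:191183410-191183469 for Atf3, chr6:7693214-7693243 for Asns, chr2:152344028-152344057 for Trib3 and chr7:45526269-45526306 for Ppp1r15a. The match began at base -193 from the RefSeq start in Chac1, -110 in Atf3, -23 in Asns, 15 in Trib3 and -12 in Ppp1r15a. In Asns and Trib3 it lies in an annotated exon, so only 30 bases are printed. Neither motif was found in these windows of Atf4, Ddit3, Sesn2, Ddit4 or Atf5. A match is a description of letters and not a binding site.

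The libraries held 21386685 to 56837204 counts, and every Cdk6+/+ library was deeper than every Cdk6-/- library. Levels below are CPM, the usual unit of counts relative to library depth, after TMM scaling, which corrects library totals for composition. Cdk6 was counted at 551 to 562 CPM in the Cdk6+/+ libraries and at 2.17 to 562 CPM in the Cdk6-/- libraries (log2 fold change -0.85, standard error, SE, 0.93, adjusted p = 0.672 in edgeR's quasi-likelihood test). Which exon was deleted is not stated, so these counts do not check the genotype, and the groups are called by label. Atoh1, the defining factor of granule neuron progenitors, was at 51.8 to 197 CPM in 8 libraries and at 0.0442 CPM in the library labelled Cdk6-/- tumour 5, where the proliferation marker Mki67 was at 0.398 CPM. Gabra6, which marks mature granule neurons, was at 931 and 1054 CPM in Cdk6-/- tumours 1 and 5 and at most 161 CPM elsewhere, and results are given with and without these tumours. The 2 differ: the summed progenitor list was 2050 CPM in tumour 1 and 50.7 CPM in tumour 5, against up to 3149 CPM in the other libraries. Tumour 5 is called a tumour by its label alone and is part of every n = 6 value. How much tumour it holds was not tested. All Cdk6+/+ libraries and Cdk6-/- tumour 6 had Xist at 1583 to 2087 CPM and no count of the Y-linked gene Ddx3y, and Cdk6-/- tumours 2 to 5 had Ddx3y at 57.6 to 145 CPM. Cdk6-/- tumour 1 was between these, with Xist at 131 CPM and Ddx3y at 0.160 CPM, so sex and label cannot be fully told apart. Among marker lists of 6 other cell types (Purkinje cells, astrocytes, oligodendrocytes, microglia, endothelium and red cells), the summed levels of 2 did not overlap between the groups. The red cell list was at 65.9 to 111 CPM in Cdk6+/+ and 0.535 to 8.005 CPM in Cdk6-/- tumours, with Hba-a1 at 0 in tumours 1, 5 and 6, and the microglia list at 273 to 303 against 76.0 to 204 CPM, with Aif1 at 22.2 to 30.2 against 1.19 to 19.2 CPM. In whole tumours, fewer cells of a type and less RNA per cell cannot be told apart.

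None of the 10 genes passed the test between the groups over all 9 libraries, where 5.19% of all genes did (2.76% higher and 2.43% lower in Cdk6-/-). Ppp1r15a came nearest and was higher in every Cdk6-/- tumour. Atf4, Sesn2, Ddit4 and Atf5 were higher in several Cdk6-/- tumours and lower or level in tumours 1 or 5. Chac1 was at well under the Cdk6+/+ level in 5 Cdk6-/- tumours and far above it in tumour 6. A count of 0 here comes from edgeR; at an unadjusted p under 0.05 there was 1 gene (Ppp1r15a) of 10, against 19.3% of all genes, DESeq2 called the same gene (12.6% of all genes called, 8.05% higher and 4.53% lower), and limma-voom called 0 (6.23% of all genes).

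**Figure D1:**
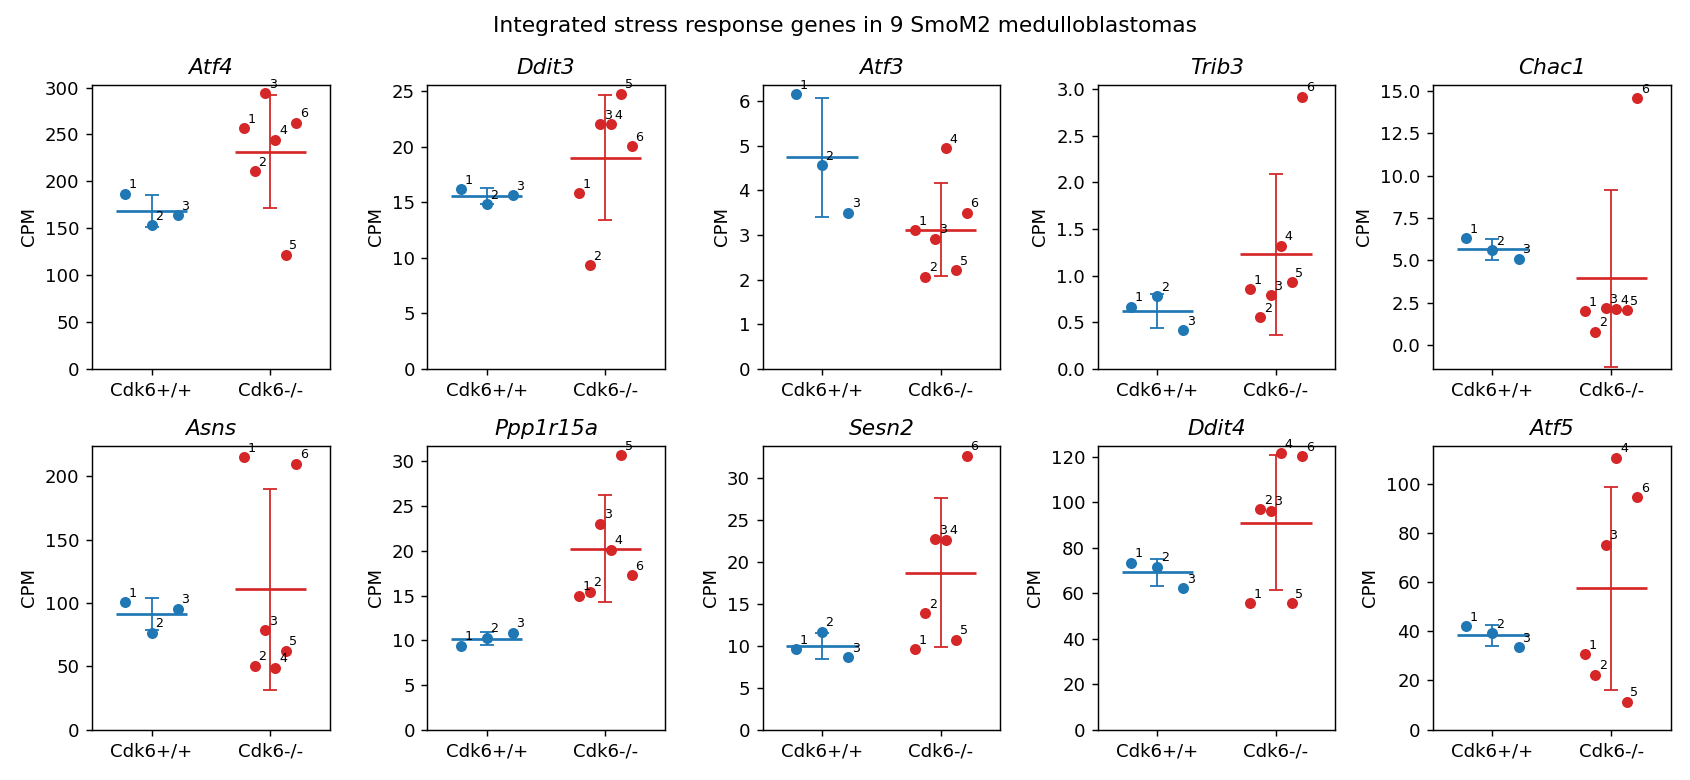
Level of each of the 10 integrated stress response genes (CPM, y axis, a separate linear scale per gene) in 3 Cdk6+/+ and 6 Cdk6-/- tumours (x axis). Points are tumours with their number, horizontal lines are means and bars are SD. Ppp1r15a is the gene without overlap of the groups, and Chac1 at 14.6 CPM in Cdk6-/- tumour 6 stands far above the other 5 Cdk6-/- tumours, which lie between 0.774 and 2.17 CPM.

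Among the transcription factors, Atf4 (chromosome 15, 80255184 to 80257540), the effector of the response, was at 187, 154 and 164 CPM in Cdk6+/+ tumours 1 to 3. In Cdk6-/- tumours 1 to 6 it was at 257, 211, 294, 244, 122 and 263 CPM. Of the Cdk6-/- values, 5 lay above all Cdk6+/+ values, and that of tumour 5 lay below all of them. Mean Atf4 was 168 ± 17.1 CPM (SD, n = 3) in tumours labelled Cdk6+/+ and 232 ± 60.3 CPM (SD, n = 6) in those labelled Cdk6-/-. The log2 fold change, Cdk6-/- minus Cdk6+/+, was 0.46 (SE 0.29, Benjamini-Hochberg adjusted p = 0.428 in edgeR's quasi-likelihood test). Without tumours 1 and 5 it was 0.59 (SE 0.18, edgeR adjusted p = 0.0568).

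Atf5 (chromosome 7, 44812256 to 44816658), a bZIP factor related to Atf4 that acts in the mitochondrial stress response, varied most widely among the 4 factors. It was at 42.2, 39.2 and 33.6 CPM in the Cdk6+/+ tumours and at 30.8, 22.3, 75.3, 111, 11.5 and 94.5 CPM in Cdk6-/- tumours 1 to 6. Tumours 3, 4 and 6 lay above every Cdk6+/+ tumour and tumours 1, 2 and 5 below every one. Between the groups the log2 fold change was 0.59 (SE 0.64, adjusted p = 0.670 in edgeR). It was 0.30 without Cdk6-/- tumour 4 and 0.98 without tumours 1 and 5 (SE 0.44, edgeR adjusted p = 0.155).

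Ddit3 (chromosome 10, 127290774 to 127296288) encodes CHOP, the factor tied to cell death under lasting stress. It was at 16.2, 14.8 and 15.7 CPM in Cdk6+/+ and at 15.8, 9.32, 22.1, 22.1, 24.8 and 20.05 CPM in Cdk6-/- tumours 1 to 6. Tumour 5, where Atf4 was lowest, had the highest Ddit3 level. Its log2 fold change was 0.29 (SE 0.32, adjusted p = 0.677 in edgeR).

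Atf3 (chromosome 1, 191170296 to 191218039), a stress-induced bZIP repressor, was the factor with the lower mean in Cdk6-/- tumours. It was at 6.16, 4.56 and 3.50 CPM in Cdk6+/+ and at 3.10, 2.06, 2.92, 4.95, 2.21 and 3.50 CPM in Cdk6-/- tumours 1 to 6. The groups overlapped through tumour 4 alone, since tumour 6 lay just below the lowest Cdk6+/+ value, and the log2 fold change was -0.60 (SE 0.37, adjusted p = 0.424 in edgeR).

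Among the regulators that feed back on the response, Ppp1r15a (chromosome 7, 45522922 to 45526268) encodes GADD34, which directs a phosphatase to eIF2 and so restores translation. It was at 9.38, 10.3 and 10.8 CPM in Cdk6+/+ and at 14.98, 15.4, 23.0, 20.1, 30.7 and 17.3 CPM in Cdk6-/- tumours 1 to 6. All 6 Cdk6-/- tumours were above all 3 Cdk6+/+ tumours, which held in the same direction for 7.56% of all genes tested (15.5% in either direction). Mean Ppp1r15a was 10.2 ± 0.735 CPM (SD, n = 3) in tumours labelled Cdk6+/+ and 20.3 ± 5.94 CPM (SD, n = 6) in those labelled Cdk6-/-, and the log2 fold change was 0.99 (SE 0.30, adjusted p = 0.0987 in edgeR). DESeq2 gave an adjusted p of 0.0152. An exact two-sided permutation test of the log2 CPM gave p = 0.0238, the smallest that 3 against 6 tumours allow, and 0.153 adjusted over all genes tested. Without tumours 1 and 5 Ppp1r15a rose by 0.90 (SE 0.23, edgeR adjusted p = 0.0298), where 14.3% of all genes changed and 8.12% rose. Immediate early genes, which respond within minutes to activity and handling, lay in the same direction. Their summed level was 144 to 171 CPM in Cdk6+/+ and 185 to 409 CPM in Cdk6-/- libraries. All 12 had positive log2 fold changes, as did 10999 of the 18356 genes tested, and the median of the 12 was 1.23. Of this list 0 passed edgeR's test while 6 rose in DESeq2, as did 8.05% of all genes. Without tumours 1 and 5 the median of that list was 0.80, and Fos went from 2.37 to 0.74. Fosb (log2 fold change 3.83, adjusted p = 0.0512) and Egr1 (2.12, adjusted p = 0.0790) had the smallest p of that list in edgeR. With the Ddx3y level as a covariate the Ppp1r15a value was 0.64 (SE 0.38, edgeR adjusted p = 0.568). The part of immediate early genes and of the microglia and red cell lists in the Ppp1r15a result was not tested.

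Sesn2 (chromosome 4, 132492032 to 132510501) encodes a leucine sensor that restrains mTORC1. It was at 9.58, 11.7 and 8.63 CPM in Cdk6+/+ and at 9.57, 13.9, 22.7, 22.7, 10.7 and 32.7 CPM in Cdk6-/- tumours 1 to 6. Tumours 1 and 5 lay among the Cdk6+/+ values and the other 4 above them. The log2 fold change was 0.91 (SE 0.42, adjusted p = 0.276 in edgeR), and without tumours 1 and 5 Sesn2 rose by 1.21 (SE 0.30, edgeR adjusted p = 0.0280). In that fit 8.12% of all genes rose, and it leaves out the Cdk6-/- tumours with the lowest Sesn2. Without tumour 1 alone the edgeR adjusted p was 0.172, and without tumour 5 alone 0.141.

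Ddit4 (chromosome 10, 59949675 to 59951770), also called REDD1, is a further inhibitor of mTORC1 that responds to hypoxia and glucocorticoids as well. It was at 73.5, 71.7 and 62.2 CPM in Cdk6+/+ and at 55.5, 96.9, 96.2, 122, 55.7 and 120.3 CPM in Cdk6-/- tumours 1 to 6. As for Sesn2, tumours 1 and 5 stood apart from the other 4, here below every Cdk6+/+ tumour. The log2 fold change was 0.40 (SE 0.31, adjusted p = 0.526 in edgeR), and without tumours 1 and 5 Ddit4 rose by 0.66 (SE 0.17, edgeR adjusted p = 0.0354). In that fit, which leaves out the tumours with the lowest Ddit4, 8.12% of all genes rose. Without tumour 1 alone the edgeR adjusted p was 0.349, and without tumour 5 alone 0.267.

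Trib3 (chromosome 2, 152337422 to 152344032), a pseudokinase that dampens Atf4 and Ddit3 activity, was the lowest of the 10 genes. It was at 0.666, 0.781 and 0.415 CPM in Cdk6+/+, from 37, 32 and 16 counts. In Cdk6-/- tumours 1 to 6 it was at 0.856, 0.553, 0.791, 1.32, 0.929 and 2.92 CPM, from 16, 15, 32, 32, 21 and 65 counts. Tumour 6 was at 3.41 times the median of the other 5 Cdk6-/- tumours. The log2 fold change between the groups was 0.97 (SE 0.58, adjusted p = 0.406 in edgeR), 0.51 without tumour 6 and 1.73 with Ddx3y as a covariate.

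Of the metabolic targets, Chac1 (chromosome 2, 119351229 to 119354381) encodes an enzyme that breaks down glutathione and is among the most direct readouts of Atf4 activity. It was at 6.30, 5.59 and 5.08 CPM in Cdk6+/+ tumours 1 to 3. In Cdk6-/- tumours 1 to 6 it was at 1.98, 0.774, 2.17, 2.10, 2.03 and 14.6 CPM. The first 5 of these lay below every Cdk6+/+ tumour and tumour 6 above every one, at 7.17 times the median of the other 5. Over all libraries the log2 fold change was -0.52 (SE 0.79, adjusted p = 0.774 in edgeR), and DESeq2 gave no p. Without tumour 6 Chac1 fell by 1.64 on the log2 scale (edgeR adjusted p = 0.0487), where 5.06% of all genes changed and 2.20% fell, so that 1 library decides this call.

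Asns (chromosome 6, 7675169 to 7693254), which makes asparagine from aspartate and glutamine, was at 101, 76.6 and 95.5 CPM in Cdk6+/+. In Cdk6-/- tumours 1 to 6 it was at 215, 50.6, 78.2, 48.9, 62.2 and 209.8 CPM. Tumours 1 and 6 were above every Cdk6+/+ tumour, and tumours 2, 4 and 5 below every one. The log2 fold change was 0.28 (SE 0.53, adjusted p = 0.824 in edgeR) and was slightly negative without tumour 1 or without tumour 6 (-0.016 and -0.0024). With the Ddx3y level as a covariate it was 1.39 (SE 0.30, edgeR adjusted p = 0.0935).

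**Figure D2:**
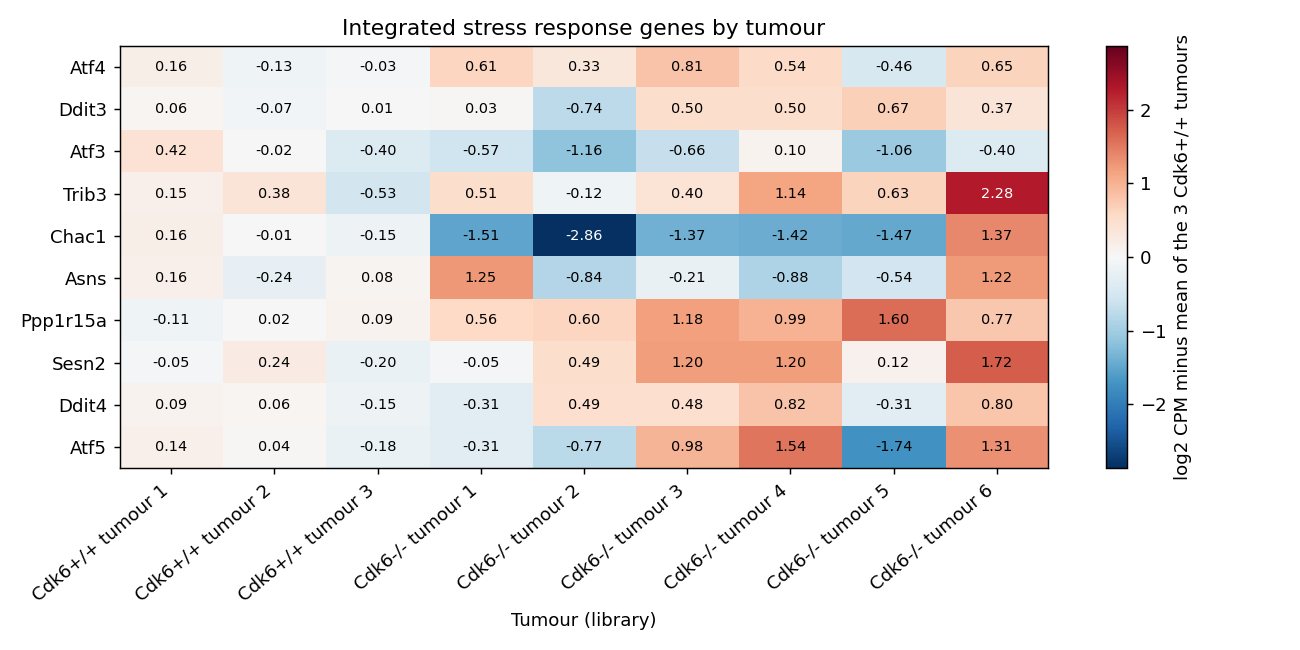
Log2 CPM of each gene (rows) in each tumour (columns) minus the mean log2 CPM of the 3 Cdk6+/+ tumours; red is higher and blue lower. Cdk6-/- tumour 6 has positive values for every gene except Atf3, and the Chac1 row is negative in Cdk6-/- tumours 1 to 5 (-1.51, -2.86, -1.37, -1.42 and -1.47) and 1.37 in tumour 6.

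**Figure D3:**
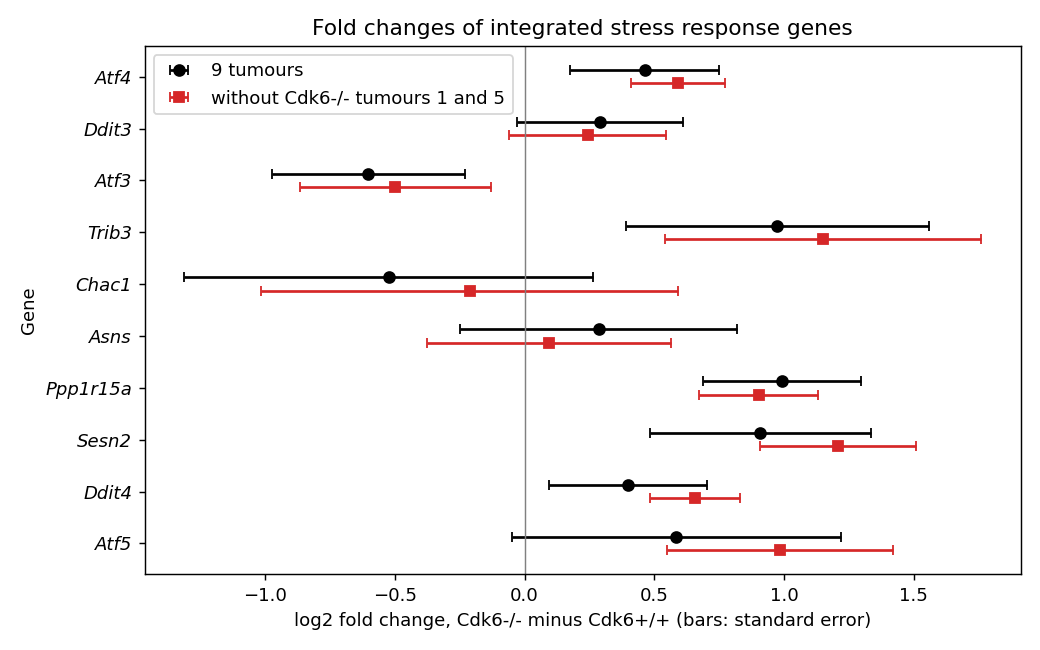
Log2 fold change of each gene, Cdk6-/- minus Cdk6+/+ (x axis), with standard errors as bars, over 9 tumours (black circles) and without Cdk6-/- tumours 1 and 5 (red squares). Ppp1r15a, Sesn2 and Ddit4 pass the threshold in the second fit, at 0.90, 1.21 and 0.66, and none of the 10 in the first.

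Read as a list, 8 of the 10 genes had positive log2 fold changes, as did 10999 of the 18356 genes tested. The median of the 10 was 0.43, where the median of all genes tested was 0.16. Without tumours 1 and 5, 3 rose and 0 fell, where 8.12% of all genes rose and 14.3% changed, and the median was 0.62, beside a median of 0.04 over all genes. Per base of exon the order of the levels in Cdk6+/+ tumours was Atf4 at 97.6 RPKM (CPM per kilobase of exon), Ddit4 at 41.0, Asns at 33.2, Atf5 at 19.2, Ddit3 at 9.09, Ppp1r15a at 3.47, Chac1 at 3.46, Sesn2 at 2.87, Atf3 at 2.20 and Trib3 at 0.292 RPKM. From Ppp1r15a to Atf3 each gene overlapped its neighbour in this order over the 3 tumours. The counts of the 10 genes were little exposed to shared sequence. No 50-base sequence of 8 of them occurs in another annotated gene, and 1.11% of those of Ddit3 and 1.81% of those of Atf5 do, where Ddit3 overlaps Mars and Atf5 overlaps Nup62 on the opposite strand. The authors' deposited DESeq2 table holds 761 genes, with adjusted p of at most 0.0499, and lists none of the 10. Absence from it therefore means only that a gene was not among those the authors listed. Ppp1r15a is absent although DESeq2 called it here (adjusted p = 0.0152), in a fit that called 2309 of the 18356 genes tested. The reason for this difference was not tested.

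The rest of the pathway was read from 7 lists holding 109 genes, 106 of which passed the filter. No gene of any list passed edgeR's test over 9 libraries, 12 had an unadjusted p under 0.05 (19.3% of all genes), DESeq2 called 5 (2 higher, 3 lower; 12.6% of all genes) and limma-voom 2 (6.23%). Among 19 eIF2 kinases, eIF2 and eIF2B subunits and their regulators the median log2 fold change was -0.07. The genes with the smallest p were Eif2s3x and Eif2s1, which encode the gamma and alpha subunits of eIF2, the factor that carries the initiator tRNA. Eif2s3x was at 166 to 221 CPM in Cdk6+/+ and 28.0 to 111 CPM in Cdk6-/- tumours (log2 fold change -1.58, SE 0.44, edgeR adjusted p = 0.0726), but the gene is X-linked, 34.6% of its 50-base sequences occur in other genes, and sex differed between the groups. Eif2s1 was at 158 to 202 and 42.4 to 139 CPM (-0.95, SE 0.35, edgeR adjusted p = 0.169), and Eif2s2, the beta subunit, named after its values were seen, at 201 to 261 and 75.7 to 193 CPM (-0.81, SE 0.31, edgeR adjusted p = 0.184). In all 3 subunits every Cdk6-/- tumour lay below every Cdk6+/+ tumour, as held in that direction for 7.98% of all genes. On this list of 19 it held for 4 genes, and 1 lay apart in the other direction. Eif2b1, an eIF2B subunit also named after its values were seen, was among the 4, at 45.7 to 55.6 and 25.1 to 45.3 CPM. All 3 subunits fell without tumours 1 and 5, by 1.62, 0.91 and 0.80 on the log2 scale, where 6.14% of all genes fell. Eif2ak3 (PERK), the kinase of the endoplasmic reticulum, also named after its values were seen, was at 33.1 to 37.0 CPM in Cdk6+/+ and 38.2 to 87.6 CPM in Cdk6-/- tumours (0.68, SE 0.285, edgeR adjusted p = 0.227).

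Among 15 genes of amino acid synthesis and folate metabolism that Atf4 is known to control, the median was 0.17 and edgeR called 0, while DESeq2 and limma-voom each called 1, Phgdh, with adjusted p of 0.0174 and 0.0297. Phgdh, the first enzyme of serine synthesis, was at 85.0 to 95.9 CPM in Cdk6+/+ and 10.8 to 66.4 CPM in Cdk6-/- tumours (log2 fold change -1.69, SE 0.49, edgeR adjusted p = 0.0807), with 47.8% of its 50-base sequences found in other genes. Pck2, a mitochondrial enzyme of gluconeogenesis, had 0.70 (edgeR adjusted p = 0.436). The 10 amino acid transporters had a median of 0.09, with -0.49 for Slc1a4 and 0.67 for Slc7a5, which imports leucine. The 13 genes of cytosolic aminoacyl-tRNA synthetases and tRNA export, which charge and carry tRNAs, had a median of 0.06, with 0.47 for Cars and 0.38 for Aars. Of 20 further stress and secreted targets 18 were tested, with a median of 0.39. The smallest p there belonged to Map1lc3b, an autophagy protein (-0.78, SE 0.21, edgeR adjusted p = 0.0677), and Cdkn1a, the p21 inhibitor (1.68, SE 0.56, edgeR adjusted p = 0.126). The 14 tested bZIP partners had a median of 0.39, with the smallest p for Fos (2.37) and Nfe2l1 (0.61), and the 17 chaperones and sensors of the Atf6 and Xbp1 arms 0.15, with the smallest p for Ern1 (0.48) and Dnajb11 (0.27). Without tumours 1 and 5, 2 pathway genes rose, Bbc3 (2.004) and Slc7a5 (1.04), and 7 fell, Eif2s1, Eif2s2, Eif2s3x, Phgdh, Got1, Slc7a11 and Map1lc3b, where 8.12% of all genes rose and 6.14% fell.

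The clearest pattern in these genes was between single tumours and not between the labelled groups. Cdk6-/- tumour 6, singled out after its values were seen, was the highest of the 9 libraries for 8.26% of all genes tested. Above all the other 5 Cdk6-/- libraries it stood for 11.2% of all genes. It was the highest of 9 for 12 of the 13 synthetase and tRNA export genes, 11 of the 15 synthesis genes, 5 of the 10 transporters and 3 of the 10 integrated stress response genes, Trib3, Chac1 and Sesn2. It was the highest for 0 of the 17 chaperones and 1 of the 18 other stress targets. The median gene of the synthesis list stood 1.13 log2 units above its median over the other 5 Cdk6-/- tumours, that of the transporters 0.75, that of the synthetases 0.79 and that of all genes tested 0.02. With 1 tumour there is no test, and these are descriptions of that library.

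Named examples from these lists were chosen after their values were seen. Aldh1l2, a mitochondrial folate enzyme, was at 149 CPM in tumour 6, 28.5 to 89.3 CPM in the other Cdk6-/- tumours and 55.1 to 63.9 CPM in Cdk6+/+. Mthfd2, which makes formyl donors in mitochondria, was at 131 CPM in tumour 6, 8.71 to 59.6 CPM in the other Cdk6-/- tumours and 48.8 to 56.8 CPM in Cdk6+/+. Slc7a5 was at 550 CPM in tumour 6, 60.4 to 377 CPM in the others and 177 to 219 CPM in Cdk6+/+. Aars, which charges alanine tRNA, was at 299.7 CPM in tumour 6, 135 to 219 CPM in the others and 148 to 152 CPM in Cdk6+/+. In each of these the library of tumour 6 was above all 8 others. By other scalings of the libraries tumour 6 was highest for 11 or 12 synthetase genes, 7 to 9 synthesis genes, 5 transporters and 3 or 4 of the integrated stress response genes, and for 4.57% to 7.25% of all genes. Of the 9 synthetase genes with a RefSeq promoter in the table, 5 held TGATGNAA (Aars, Gars, Iars, Tars and Yars), as did 0 of 14 chaperone genes, against 4.51% of all 27025 genes with a promoter. It was held by 3 of 13 synthesis genes, 2 of 6 transporters and 3 of 14 other stress targets. Of the bZIP partners 2 of 13 held it, and of the eIF2 list 1 of 16. Whether the motif has a part in the tumour 6 levels was not tested.

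Tumour 6 differed from other libraries in further ways whose part in this pattern was not tested. Its summed Purkinje list was 70.4 CPM and its oligodendrocyte list 249.8 CPM, against 755 to 1462 and 1229 to 3105 CPM in Cdk6+/+. Low values were shared by Cdk6-/- tumours 1 to 4, at 67.7 to 439 and 222 to 1048 CPM, while tumour 5 was at 8943 and 3446 CPM. The granule neuron progenitor list of tumour 6 was the highest of all, 3149 CPM. Tumour 6 was also the one Cdk6-/- library with Xist at the Cdk6+/+ level, 1757 CPM, and no count of Ddx3y. With Ddx3y as a covariate the Chac1 log2 fold change went from -0.52 to 0.72 (SE 0.69, edgeR adjusted p = 0.756). The defining markers Pcp2 of Purkinje cells and Mbp of oligodendrocytes were at 0.0448 and 158 CPM in tumour 6. Cdk6-/- tumour 1, with an equally low Purkinje list of 67.7 CPM and an oligodendrocyte list of 222 CPM, had an Asns level as high as that of tumour 6 and a synthetase median 0.42 log2 units above the Cdk6+/+ mean, but its Chac1 was at 1.98 CPM and its median synthesis gene 0.52 below. Tumour 4 was the highest library for 10 of the 17 chaperones, where it was so for 18.9% of all genes, with Hspa5 (BiP) at 715 CPM against 348 to 614 CPM in the others. Its synthetase median lay 0.20 below the Cdk6+/+ mean. In tumour 5, with almost no progenitor transcripts, Atf4 and Atf5 were lowest and Ddit3 and Ppp1r15a highest of all 9, in a library that was lowest for 27.3% and highest for 24.0% of all genes.

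**Figure D4:**
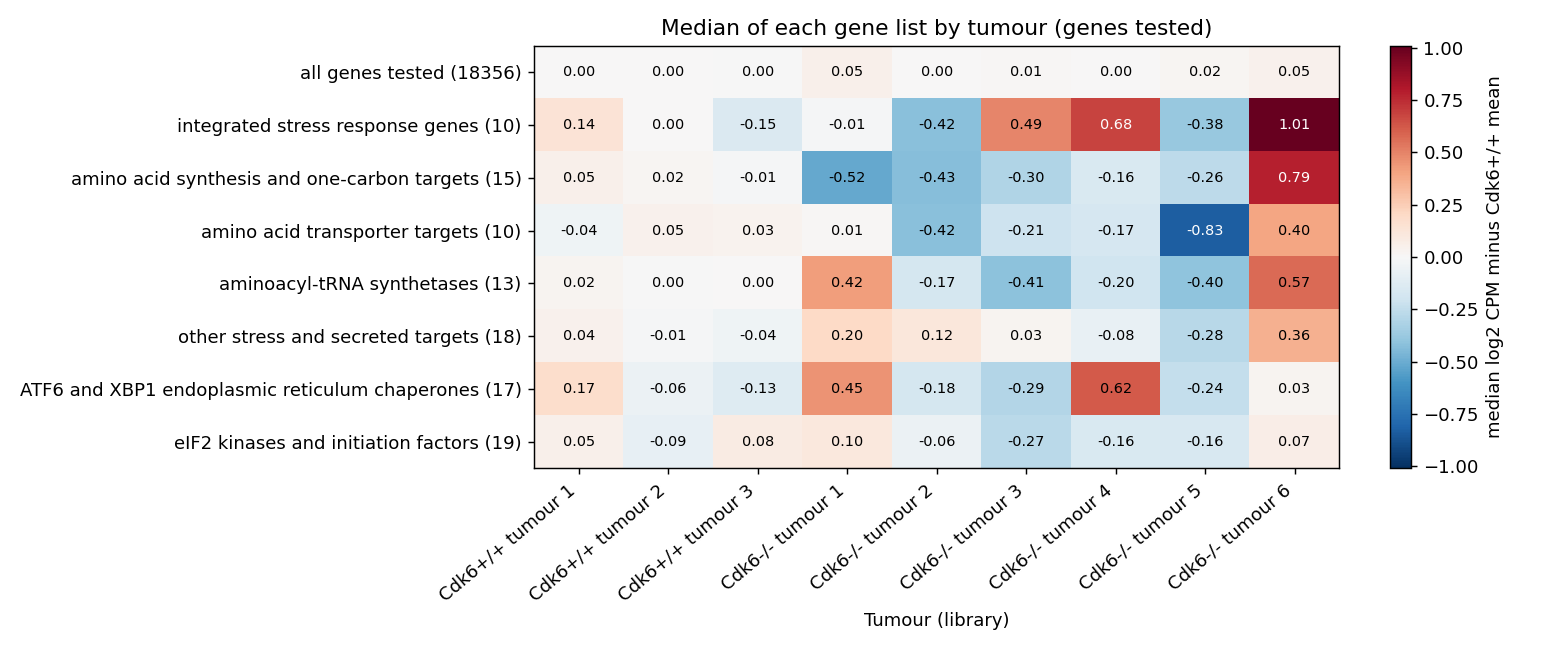
Median over the tested genes of each list (rows, number in brackets) of the log2 CPM minus the mean of the 3 Cdk6+/+ tumours, by tumour (columns). Tumour 6 has 1.01 for the integrated stress response genes, 0.79 for amino acid synthesis, 0.40 for transporters and 0.57 for synthetases but 0.03 for the chaperones, and tumour 4 has 0.62 for the chaperones.

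Genes with the most similar pattern were found among 14621 named genes by the root mean square difference of log2 CPM, each gene centred on its mean over the 9 tumours. For Atf4, whose own SD over the tumours was 0.42 log2 units, they were Ddx47 (difference 0.091), Cd3eap (0.10) and Mrps35 (0.13). For Asns (SD 0.79) they were Aldh1l2 (0.29), Cyb5r2 (0.33) and Glt8d2 (0.38), and Aldh1l2 is also on the list of synthesis genes. For Atf5 (SD 1.04) they were Mapk7 (0.28), Zfp428 (0.301) and the mitochondrial serine hydroxymethyltransferase Shmt2 (0.32). The nearest genes to Chac1 (SD 1.23) were Dok4, Cass4 and Zfp90, at 0.63, 0.65 and 0.68. These are descriptions over 9 libraries that share their depth and cell makeup with the genes compared.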

How the data were processed

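Per the labels' protocols, Trizol RNA of whole frozen tumours was made into Illumina TruSeq libraries, and the series' design text gives 50-base single-end reads. FastQC, Trimmomatic, HISAT2, DESeq2 and the build GRCm38.p6 are named in the submitters' processing notes without versions. For the counting tool and its use of strand the sources used here give nothing. The authors deposited unnormalized whole-number counts per gene with exon lengths, and the log2 fold changes and p-values of their own DESeq2 comparison, of which the gene names and adjusted p-values were read. A score in that table, a negative log of the p-value as deposited, was not used.

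Counts were filtered with filterByExpr (18356 of 47593 rows kept), scaled by TMM and tested with edgeR 4.0.16 (R 4.3.3; robust quasi-likelihood test, two-sided, with genotype as its sole term). P-values were adjusted by Benjamini-Hochberg over all tested genes at a threshold of 0.05. Positions are those of the deposited table, and RPKM used its exon lengths. The list medians by tumour, the permutation test and the pattern comparison used log2 CPM with a prior count of 2, and the heat map of the 10 genes used log2 CPM with none. Alternatives were DESeq2 1.42.0, limma-voom (limma 3.58.1), other scalings and filters, leaving out tumours, a replicate block and Ddx3y as a covariate. The p-values weigh the difference between the labelled groups against the spread between these samples. Except with Ddx3y as a covariate, they take no account of sex. Members and lists were chosen with earlier results of these data known. Named genes were the 10 members, the 2 of smallest p of each pathway list where none passed, the first marker of the cell type lists used, and the 3 nearest patterns of Atf4 and up to 3 further members. Other genes are marked as chosen after their values were seen. Shared sequence and exon overlap came from GENCODE M21 (GRCm38), promoters from RefSeq. The fit was tested on simulated data. It found most of the changes put in when the spread was set small, but missed most of them at the spread fitted here. A gene that did not pass is therefore not shown to be unchanged. Chi-square per degree of freedom was at least 31.2 for every library pair within a group, and each library was counted as its own sample.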

Additional observations from a re-analysis of the deposited data

Results flagged for a closer look

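In the 6 Cdk6-/- libraries, 2 of the 10 genes had a highest value far from the rest. Chac1 reached 14.6 CPM in tumour 6, where the next highest library had 2.17 CPM, a gap of 0.899 of the whole range. Trib3 reached 2.92 CPM in tumour 6, where the next highest library had 1.32 CPM, a gap of 0.675 of the range, also beyond Dixon's limit for 6 samples. By chance about 5% of groups are set apart by this measure if values are normally distributed, which CPM in libraries this unlike need not be. The share of all genes set apart was not determined, so 2 of 10 is not shown to be an excess.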

How the results depend on the processing

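Across all genes 953 changed with the fit as reported, 563 with at least 1 CPM in 3 libraries, 2309 by DESeq2, 2643 without Cdk6-/- tumours 1 and 5, 59 with Ddx3y as a covariate and 207 to 1506 with 1 tumour left out (221, 400 and 207 without Cdk6+/+ tumours 1, 2 and 3, 525 and 1506 without Cdk6-/- tumours 3 and 5). Of the 10 integrated stress response genes 0 passed as reported, 1 by DESeq2 (Ppp1r15a), 3 without tumours 1 and 5, and 0 to 1 with 1 tumour left out, the 1 being Chac1 without tumour 6. Of the pathway genes 0 passed as reported, 1 with upper quartile scaling and 1 without the filter (Eif2s3x both times), 5 by DESeq2, 2 by limma-voom, 9 without tumours 1 and 5, and 0 to 2 with 1 tumour left out. Over all alternatives and the 10 genes, 188 fold changes kept their direction and side of the threshold, 5 passed it and 6 changed sign. Those were Asns (-0.0053 by limma-voom; -0.016 to 0.44 with 1 tumour left out), Chac1 (0.72 with Ddx3y as a covariate), Ddit3 (-0.052) and Atf5 (-0.032) under the replicate block. The causes were not tested. The block, on the 3 Cdk6+/+ tumours and Cdk6-/- tumours 1 to 3, called 753 genes, 1 pathway gene (Phgdh) and 0 of the 10, against 985, 3 and 0 in the same 6 libraries without it. Same-numbered tumours had correlations of 0.047, -0.18 and -0.25 between their deviations, which gave no sign that the numbers pair them. With 3 such pairs this check cannot decide the question. Tumour 6 was the highest library for 11 synthesis genes as reported and 7 with upper quartile scaling, where it was so for 4.57% of all genes. Trib3 could not be fitted at 1 CPM in 3 libraries. Depth limits Trib3 most, with 15 to 65 counts per library.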
